A study of Mus musculus with 8 samples.

Results

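Mouse miR-21a is read here through both of its mature strands, mmu-miR-21a-5p and mmu-miR-21a-3p, which are 2 of the 1881 mouse miRNAs on the array. They were taken as every non-control row that carries one of these names, which gave 2 probes for miR-21a-5p and 4 probes for miR-21a-3p. The study compared kidney tissue of male C57BL/6 mice, 8 weeks of age, collected 7 days after surgery. One group had unilateral ureteral obstruction (UUO), the closing of the ureter of one kidney, and the other had a sham operation. There were 4 samples per group, UUO 1, 2, 3 and 4 and Sham 1, 2, 3 and 8, with 1 array each. The labels name no drug, transgene or mutation. They do not say which kidney or which part of it was taken, nor that each sample came from a different mouse, so p-values measure the spread between these samples only.

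A miRNA gene is transcribed as a hairpin, and Drosha and Dicer cut out a duplex of its arms. One strand, the guide, is kept by an Argonaute protein and directs it to messenger RNAs that pair with the seed, bases 2 to 8 of the miRNA, while the other strand, the passenger, is mostly lost. miR-21 is among the best known miRNAs of fibrosis and inflammation. In mouse kidney, genetic loss or inhibition of miR-21 has been reported to lessen fibrosis after ureteral obstruction, and its known targets include Pdcd4, Spry1 and Ppara. Its 5p strand is the usual guide and its 3p strand the usual passenger.

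The hairpin and the mature strands are shown because each probe reads 1 strand and the comparison of the strands is the main question here. The sequences are RefSeq's for GRCm38.p6. In the hairpin the capitals mark the strands, at bases 18 to 39 and 56 to 77 of 92. In the mature sequences the capitals mark the seed.
mir-21a hairpin: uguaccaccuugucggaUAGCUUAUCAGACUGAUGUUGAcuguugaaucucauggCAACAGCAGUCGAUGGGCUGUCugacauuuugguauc
miR-21a-5p: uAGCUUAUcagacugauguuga
miR-21a-3p: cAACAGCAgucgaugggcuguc
miR-21b: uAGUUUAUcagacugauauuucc
miR-21c: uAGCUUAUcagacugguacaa

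The hairpin lies on the minus strand at chr11:86584067-86584158 (GRCm38.p6), with miR-21a-5p at chr11:86584120-86584141 and miR-21a-3p at chr11:86584082-86584103. It falls inside the span of Vmp1 (chr11:86583858-86683836), a gene of autophagosome formation, 209 bases from the nearer end of that span. The reference used here lists no exons, so exon and intron are not told apart. The deposited files list the probes on mm9, the longest 5p probe at chr11:86397588-86397607 and the longest 3p probe at chr11:86397631-86397645. There the 5p probe has the lower position, whereas in RefSeq the 5p strand has the higher one, as the minus strand requires, so the files' positions were not used to place the strands.

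The strands have different seeds. The seed of miR-21a-5p, AGCUUAU, is shared by 1 other name, miR-21c, among 1679 mature mouse names in the RefSeq table. The seed of miR-21a-3p, AACAGCA, is shared by 0 of them. These names include neither strand of mouse miR-590, so its seeds were not compared. miR-21c has the same first 15 bases as miR-21a-5p and differs at 5 of 21 positions, A16G, G18A, U19C, U20A and G21A, where positions count from the 5′ end without gaps and the base of miR-21a-5p comes first. miR-21b differs within the seed (C4U) and at G18A, G21U and A22C, 4 of 22 positions.

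Each probe is the complement of the 3′ part of its strand. The longest 5p probe pairs with bases 3 to 22 and covers 6 of the 7 seed bases. The longest 3p probe pairs with bases 8 to 22 and covers 1 of the 7. The longest miR-21c probe is shown beside them because only its first bases set it apart from the 5p probe.
miR-21a-5p probe: tcaacatcagtctgataagc
miR-21a-3p probe: gacagcccatcgact
miR-21c probe: ttgtaccagtctgataagc

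All 8 arrays were on 1 slide. The UUO arrays filled 1 row of the slide and the Sham arrays the other, so row and group cannot be told apart, while each of the 4 columns held 1 array of each group. Detected probes had a 75th percentile of 434.7 to 481.8 intensity units in UUO and 394.3 to 413.0 in Sham. Between 740 and 800 of 4415 probes were detected in UUO and between 720 and 754 in Sham, and no spot was saturated. A probe counts as detected where over 50% of its spots are well above background. Of 14 miRNAs typical of kidney epithelium, 13 were detected on all 8 arrays, among them miR-192-5p and miR-204-5p, and miR-215-5p was detected on none.

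miR-21a-5p, the guide strand, was higher on every UUO array than on any Sham array. The mean intensity of its brightest probe before scaling was 49630, 44398, 44103 and 47311 on UUO 1 to 4, against 7017, 6496, 6893 and 7019 on Sham 1, 2, 3 and 8. On the log2 scale, with the arrays scaled to their 75th percentiles, the signals were 6.69, 6.67, 6.58 and 6.62 in UUO, against 4.09, 4.04, 4.09 and 4.09 in Sham. The arrays of a group lay close together and a gap of 2.49 on the log2 scale separated the groups. The mean log2 signal was 6.64 ± 0.05 in UUO and 4.08 ± 0.02 in Sham (SD, n = 4 each).

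miR-21a-5p rose 5.90-fold in UUO, with a 95% interval of 5.51 to 6.33 and a log2 fold change of 2.56 ± 0.04 (SE). Its limma adjusted p was 3.2e-09. Its rise was the 2nd of the 408 miRNAs tested, after miR-146b-5p, and 39.7% of the 408 were called higher at an adjusted p under 0.05, 12.5% by at least 2-fold. In 35.0% of them all UUO arrays lay above all Sham arrays, so a lack of overlap alone is common in these data. The median log2 fold change of the 408 was 0.06. The spread of miR-21a-5p within groups, an SD of 0.0391 pooled over both, was smaller than that of most miRNAs: 8 of the 408 had a smaller one, and the median was 0.117.

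The size of this rise depends on how the arrays are put on one scale. Over 8 scalings and summaries, the main one included, its log2 fold change ran from 2.26 to 2.85 and was called in each, while the median change of all tested miRNAs ran from −0.23 to 0.34. Relative to that median, the log2 fold change of miR-21a-5p ran from 2.49 to 2.62. Its place among the increases ran from 1st to 8th, except in the deposited ratio table, where it was 39th of 499.

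The second probe of miR-21a-5p, which is 1 base shorter and pairs with bases 4 to 22, gave the same picture. Its mean intensity was 32408, 28031, 27757 and 30377 on UUO 1 to 4, against 4281, 3876, 4080 and 4202 on Sham 1, 2, 3 and 8. It rose 6.29-fold (log2 fold change 2.65 ± 0.05 (SE), limma adjusted p = 6.00e-09 over 771 probes, of which 41.1% were called higher). The lowest of its 58 UUO spots was at 26976 and the highest of its 58 Sham spots at 4394. For the 20-base probe the lowest of 60 UUO spots was at 40587 and the highest of 60 Sham spots at 7607. Spots of an array are repeats of 1 sample and do not add replicates.

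The measured change differed slightly between the probes of miR-21a-5p, a difference that was not called after adjustment. Within arrays, the log2 signal of the shorter probe minus that of the longer one was −0.65 ± 0.02 in UUO and −0.74 ± 0.02 in Sham (SD, n = 4 each), a difference of 0.09. The groups did not overlap, and the 2-sided exact permutation test gave p = 0.0286, the smallest that 4 against 4 arrays allow (0.0857 when adjusted over the 3 within-array differences tested this way). Spots of the longer probe varied more within an array, with coefficients of variation of 3.54 to 5.48% in UUO and 5.73 to 7.07% in Sham, against 0.785 to 2.04% in UUO and 1.46 to 2.57% in Sham for the shorter probe.

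miR-21a-3p, the passenger strand, was also higher on every UUO array than on any Sham array. The mean intensity of its brightest probe, 15 bases long with 7 spots per array, was 125, 105, 113 and 109 on UUO 1 to 4, against 11.9, 18.4, 12.1 and 26.4 on Sham 1, 2, 3 and 8. All 7 spots were well above background on each UUO array, against 2, 6, 3 and 7 of the 7 on Sham 1, 2, 3 and 8. By that count the strand was detected on all 4 UUO arrays and on 2 of 4 Sham arrays, Sham 2 and Sham 8.

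The log2 signals of miR-21a-3p were −1.95, −2.05, −2.03 and −2.14 in UUO, against −4.89, −4.42, −4.89 and −3.96 in Sham. Sham 1 and Sham 3 were at the floor, the lowest value allowed, so their true signals are not ordered. The mean was −2.04 ± 0.08 in UUO and −4.54 ± 0.44 in Sham (SD, n = 4 each). The UUO arrays were tightly grouped and the Sham arrays were spread.

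**Figure D1:**
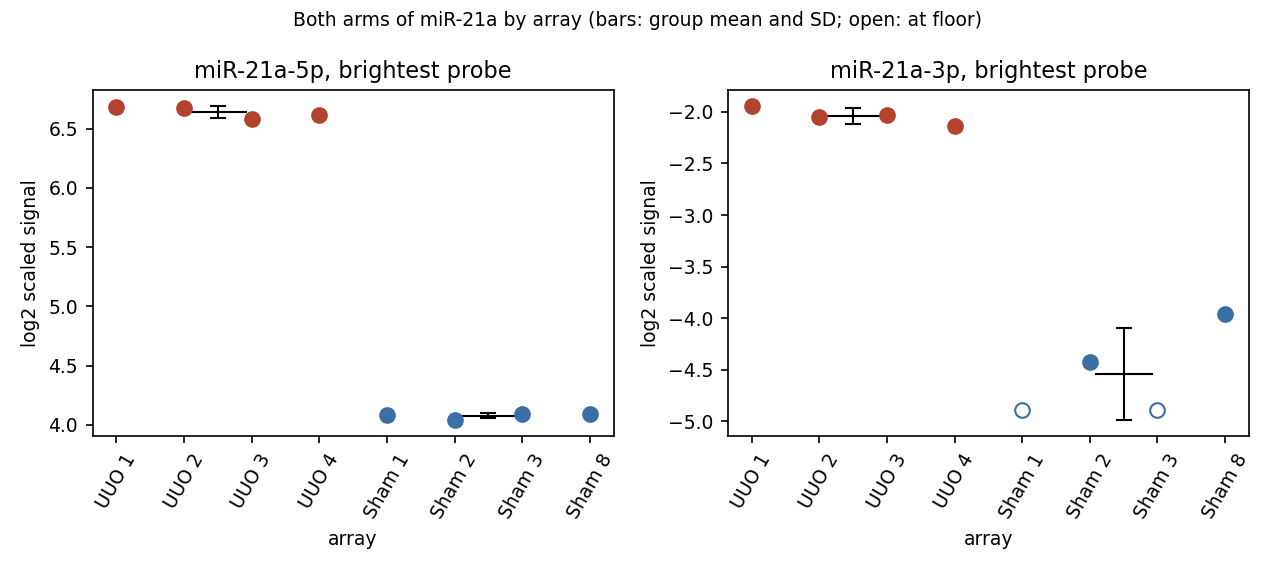
Log2 scaled signal of the brightest probe of miR-21a-5p (left panel) and miR-21a-3p (right panel) on each array, UUO in red and Sham in blue. Each point is 1 array, the horizontal bar and whiskers are the group mean and SD (n = 4), and open points are at the floor of −4.89. The 5p strand was between 6.58 and 6.69 in UUO and between 4.04 and 4.09 in Sham, and the 3p strand between −2.14 and −1.95 in UUO and between −4.89 and −3.96 in Sham.

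miR-21a-3p rose 5.66-fold in UUO, with a 95% interval of 4.11 to 7.77 and a log2 fold change of 2.50 ± 0.20 (SE). Its limma adjusted p was 1.31e-05, and its rise was the 4th of the 408 in the reported scaling. The interval is wider than that of the guide strand, and 363 of the 408 miRNAs had a smaller spread within groups. The fold was 1.96 with normexp background correction (offset 50) and 7.81 in the ratio table, and the strand was called higher in both. The place of its rise was 17th with normexp correction and 32nd of 499 in the ratio table. In the rest of the 8 scalings it was 4th or 5th. With the floor doubled the fold was 3.60, but all Sham values of the strand then lie at that floor (log2 −3.89). No test is read from that setting.

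The shorter 3p probes were dimmer. The 14-base probe had mean intensities of 85.9, 73.6, 78.9 and 79.6 in UUO, against 7.48, 15.3, 5.51 and 15.2 on Sham 1, 2, 3 and 8. It was detected on the same 2 Sham arrays as the 15-base probe, with Sham 1 and 3 again at the floor. It rose 4.79-fold (log2 fold change 2.26 ± 0.06 (SE), limma adjusted p = 3.58e-08 over 771 probes). Without the floor its log2 signals on Sham 1, 2, 3 and 8 were −5.79, −4.69, −6.20 and −4.76. With the floor their SD was 0.10. The fold, SE and p of this probe thus depend on the floor, and the p is not read.

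The 13-base probe had 28.3, 20.6, 25.2 and 25.9 in UUO and lay between −0.10 and 4.12 in Sham. It was well above background on 4 UUO arrays and on 0 Sham arrays, and was at least 1.69-fold higher in UUO. All 4 Sham values were at the floor, so no test is read from it. Here "at least" sets the mean of UUO against the lowest signal that counts as detected on the Sham arrays. The 12-base probe lay between 9.44 and 12.4 in UUO and between −0.40 and 1.56 in Sham, with 5 of its 28 UUO spots and 0 of its 31 Sham spots well above background. It was detected on no array and was not tested.

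Before scaling, the spots of the groups did not overlap for any of the 4 probes, which read nested stretches of the same strand. How many of all probes show this was not counted. By array, all UUO lay above all Sham in 35.0% of the 408 miRNAs. The lowest UUO spot of the 15-base probe was at 94.9 and the highest Sham spot at 30.6, and for the 14-base probe these were 68.2 in UUO and 19.7 in Sham. For the 13-base probe they were 16.2 in UUO and 5.79 in Sham, and for the 12-base probe 6.91 in UUO and 4.63 in Sham.

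**Figure D2:**
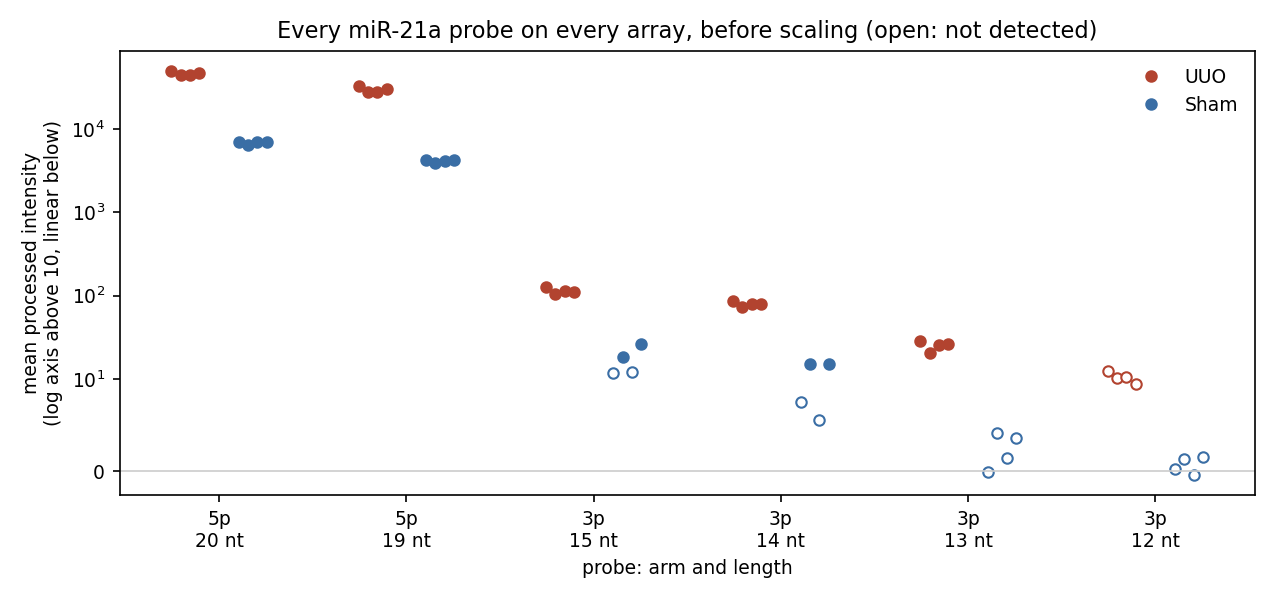
Mean processed intensity of all 6 miR-21a probes on each array before scaling, UUO in red to the left of Sham in blue. The vertical axis is logarithmic above 10 and linear below, and open points mark arrays on which the probe was not detected. For every probe the 4 UUO arrays lie above the 4 Sham arrays, and only the 3p probes have arrays without detection.

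The total intensity that the Agilent software gives per miRNA adds a different number of 3p probes in the groups. For miR-21a-5p it added 2 probes on each array, with totals of 20638 to 23409 in UUO and 2972 to 3222 in Sham. For miR-21a-3p it added 4 probes on each UUO array, with totals of 28.9 to 34.3. On Sham 1, 2, 3 and 8 it added 1, 2, 1 and 2 probes, with totals of 1.58, 4.51, 1.59 and 5.57.

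The ratio table made from these totals carries that over. miR-21a-5p stood at ratios of 2.29, 2.29, 2.16 and 2.09 in UUO and 0.430, 0.453, 0.480 and 0.433 in Sham. miR-21a-3p stood at 2.29, 2.16, 2.23 and 1.96 in UUO and at 0.144, 0.469, 0.168 and 0.511 in Sham. The low 3p ratios belong to Sham 1 and Sham 3, the arrays for which 1 probe was added.

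Whether the strands rose by different amounts was tested on their log2 difference within each array. This difference, 5p minus 3p, was 8.63, 8.72, 8.61 and 8.76 on UUO 1 to 4, against 8.98, 8.46, 8.98 and 8.05 on Sham 1, 2, 3 and 8. Its size depends on the probes and says nothing of the strands' relative amounts, so only its shift between groups was read. The UUO values lay inside the range of the Sham values. The values of 8.98 on Sham 1 and Sham 3, where the 3p strand was not detected, are fixed by its floor. They were 9.20 and 9.15 without it, and the test of the shift rests on them.

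The shift was 0.06 ± 0.20 (SE) on the log2 scale, with a 95% interval of −0.41 to 0.53. As a fold, the guide strand rose between 0.755 and 1.44 times as much as the passenger strand. Neither limma over the 48 miRNAs with both strands tested (adjusted p = 0.817) nor the 2-sided exact permutation test over the 8 arrays (p = 0.886) called it. A p that misses the threshold does not show that the strands rose alike, and most of the spread behind the interval lay in the Sham arrays. The sign is not settled either, since the shift was −0.037 with no floor and −0.13 without Sham 8. With normexp correction it was 1.60 and called. With the floor doubled it was 0.71, but all Sham values of the passenger strand then lie at that floor, so no test is read from it.

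Among the 48 miRNAs, 56.2% (27) had strands called to change unequally, miR-21a not among them. The median size of the shift was 0.142, 10 miRNAs had a smaller shift than miR-21a, and 2 had a larger SE. Both strands rose in 15 miRNAs, both fell in 13, and in 3 the strands were called in opposite directions. Of the 15, both strands rose by at least 2-fold in 5: miR-21a, miR-142a, miR-199a, miR-214 and miR-674. All Sham values of miR-214-5p are at the floor, so its call and the strand shift of miR-214 depend on that floor. In the reported scaling miR-214-5p was at least 2.82-fold higher in UUO. The 15 also include miR-143, whose 5p strand has all Sham values at the floor.

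The largest shifts were found elsewhere. In miR-149 the shift was −1.69 ± 0.22 (SE), with log2 fold changes of −0.25 for its 5p strand and 1.44 for its 3p strand. In miR-125a it was −1.44 ± 0.19, with 0.34 for 5p and 1.78 for 3p. In miR-466i it was 1.19 ± 0.07, with 0.54 for 5p and −0.65 for 3p.

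**Figure D3:**
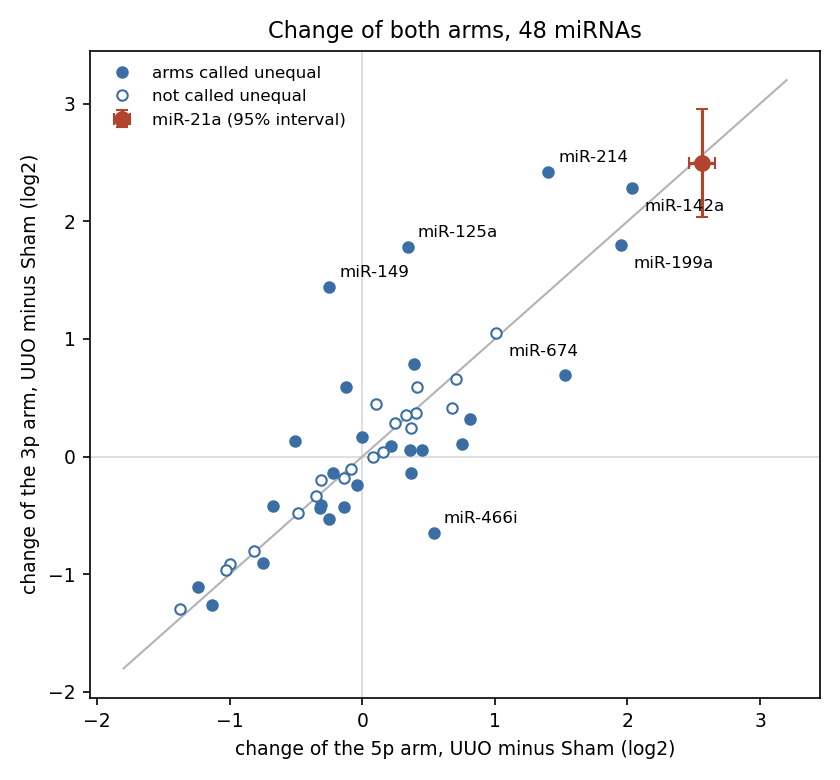
Log2 fold change of the 5p strand (horizontal) and of the 3p strand (vertical), UUO minus Sham, for the 48 miRNAs with both strands tested. Filled blue points have strands called to change unequally, open ones do not, and miR-21a is red with 95% intervals; the grey diagonal marks equal change. miR-21a, at 2.56 and 2.50, lies beside the diagonal at the upper right end.

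The listed relatives of miR-21a, namely miR-21b, miR-21c and both strands of miR-590, whose human 5p strand has the same seed as miR-21, gave no signal. Of their spots, 0 of 239 for miR-21b, 0 of 229 for miR-21c, 0 of 233 for miR-590-5p and 0 of 213 for miR-590-3p were well above background. The highest mean intensity of a probe on any array was 0.651, 1.55, 1.03 and 2.09 for these in turn. The longest miR-21c probe shares its last 13 bases with the 20-base miR-21a-5p probe, which stood at 44103 to 49630 on the UUO arrays. The miR-21c probes thus carried no signal well above background on the arrays where miR-21a-5p was brightest.

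The miRNAs whose pattern over the 8 arrays lay nearest to miR-21a were ranked by the root mean square difference of their log2 signals, each centred on its own mean. Over the 407 other miRNAs the median of this difference was 1.26 for miR-21a-5p. The nearest to it were miR-132-3p (0.0809), miR-511-3p (0.0850), miR-146b-5p (0.102), miR-214-3p (0.103) and, further off, miR-223-3p (0.161), and its own passenger strand was 8th (0.280). The nearest to miR-21a-3p were miR-511-3p (0.276), miR-214-3p (0.278) and miR-223-3p (0.280), then miR-142a-3p (0.297) and miR-146b-5p (0.319), with the guide strand 4th in that order (0.280) and a median of 1.25. With 2 groups so far apart, this measure mostly reads how alike the sizes of the changes are. miR-511-3p was detected on 0 Sham arrays and all its Sham values are at the floor, so the floor partly sets its distances. Over the 8 scalings its log2 fold change ran from 1.01 to 8.29. The values of miR-21a-3p on Sham 1 and Sham 3 are at the floor too. miR-132-3p is induced by CREB, miR-511-3p comes from an intron of the macrophage gene Mrc1, miR-146b-5p follows NF-κB, miR-214-3p is expressed in fibroblasts, and miR-223-3p and also miR-142a-3p are typical of blood cells.

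Other miRNAs reported to promote kidney fibrosis mostly rose with miR-21a. Of 18 listed besides miR-21a, 11 were tested, 8 rose, 1 fell and 2 were not called, where 39.7% of all 408 were called higher. The median log2 fold change of the 11 was 1.75, against 0.06 over all 408, and it was 0.757 with normexp correction. miR-146b-5p rose 6.34-fold (log2 fold change 2.66 ± 0.07 (SE)), the only one of the 11 with a larger rise than miR-21a-5p, and miR-132-3p rose 5.90-fold (2.56 ± 0.07). The order depends on the scaling: with normexp correction miR-146b-5p was at 1.121 and miR-132-3p at 1.105, both called, against 2.57 for miR-21a-5p. The one that fell was miR-212-3p (−0.41), which shares its transcript and seed with miR-132-3p and was named after its value was seen. The other 7, miR-433-3p, miR-433-5p, miR-382-5p, miR-377-3p, miR-216a-5p, miR-217-5p and miR-184-3p, were detected on no array.

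miRNAs reported to oppose fibrosis went the other way. Of 19 tested, 14 fell, 0 rose and 5 were not called, with a median of −0.48 and 27.7% of all 408 called lower. The largest decreases were in the miR-30 family, known to repress Ctgf, with miR-30e-5p at −1.24 ± 0.07 and miR-30c-5p at −1.08 ± 0.07 (SE). Over the 8 scalings between 9 and 16 of the 19 were called lower and between 0 and 4 higher.

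Kidney tissue holds many cell types, and an array of the tissue cannot tell more cells of a type from more RNA per cell. All 8 tested leukocyte miRNAs of 11 listed rose, where 39.7% of all 408 were called higher, and their median was 1.87. With the total intensity 7 of the 8 were called, and with normexp correction the median was 1.03. miR-150-5p and miR-155-5p are also among the fibrosis-promoting miRNAs. The summed scaled signal of the leukocyte miRNAs was 8.88 to 9.97 in UUO and 2.42 to 2.86 in Sham. miR-511-3p passed the filter on dim miRNAs only through UUO, being detected on 4 UUO and 0 Sham arrays. It was at least 5.99-fold higher in the reported scaling, a bound that does not hold in all 8 scalings (lowest log2 fold change 1.01). miR-223-3p, the neutrophil and macrophage miRNA, rose 4.92-fold (2.30 ± 0.07 (SE)). The other 3, miR-223-5p, miR-511-5p and miR-147-3p, were detected on no array. Leukocytes are known to express miR-21a too, and their part in its rise was not tested.

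In the fibroblast and smooth muscle list the rise was uneven. The miR-199 and miR-214 members had log2 fold changes from 1.40 (miR-214-5p) to 2.42 (miR-214-3p), and the miR-143 and miR-145a members changed little. Of 10 listed, 9 were tested and 7 were called higher, where 39.7% of all 408 were called higher. One of them, miR-214-5p, was detected on 0 Sham arrays and passed the filter only through UUO. Another, miR-143-5p, was detected on 4 UUO arrays and 1 Sham array, and all its Sham values are at the floor. Its log2 fold change was 0.37, named after it was seen, and no test is read from either of these. The median was 1.40, or 1.49 with miR-214-5p at its bound, and it was 0.56 with normexp correction, while 5 were called higher with the total intensity and in the ratio table. The list had a summed signal of 21.8 to 24.2 in UUO and 13.1 to 14.8 in Sham. miR-214-3p rose 5.35-fold (2.42 ± 0.06 (SE)) and miR-199a-5p 3.87-fold (1.95 ± 0.07), both also in the list of miRNAs that promote fibrosis. The smooth muscle miRNA miR-145a-5p was at −0.15 and was not called. miR-10b-5p, named after its value was seen, fell (−0.31) but was called in only 3 of the 8 scalings. miR-145a-3p was detected on no array. The part of these cells in the rise of miR-21a was not tested.

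Epithelial miRNAs fell while miR-21a rose. Of 13 tested, 10 fell and 3 were not called, where 27.7% of all 408 were called lower, with a median of −0.75 and a summed signal of 38.9 to 46.1 in UUO and 67.6 to 72.1 in Sham. miR-190a-5p was at −1.29 ± 0.09 and miR-192-3p, made in the proximal tubule, at −1.26 ± 0.11 (SE). miR-30a-5p, miR-30e-5p and the miR-200 family members are also in the list that opposes fibrosis, so the lists are not independent. With 3 scalings (the percentile over all mouse probes, none, and the dmr control features) 3 of the 13 were called higher and 7 to 9 lower.

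No endothelial or red blood cell miRNA was called higher in the reported scaling. For endothelium, miR-126a-5p was at −0.22 ± 0.07 (SE) and called lower in 5 of the 8 scalings, with a range of −0.56 to 0.06, miR-126a-3p was not called (−0.14), and the summed signal was 10.67 to 12.4 in UUO and 12.5 to 13.2 in Sham. Over the 8 scalings miR-126a-3p ran from −0.46 to 0.15 and was called higher in 3 and lower in 2, so its direction is not settled. Of the 3 tested of 4 red blood cell miRNAs, miR-451a (−0.84 ± 0.20) and miR-144-3p (−0.81 ± 0.23) fell and miR-486a-5p was not called. Their summed signal was 2.12 to 3.84 in UUO and 3.71 to 5.46 in Sham, and miR-144-5p was detected on no array. The part of either cell type in the change of miR-21a was not tested.

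**Figure D4:**
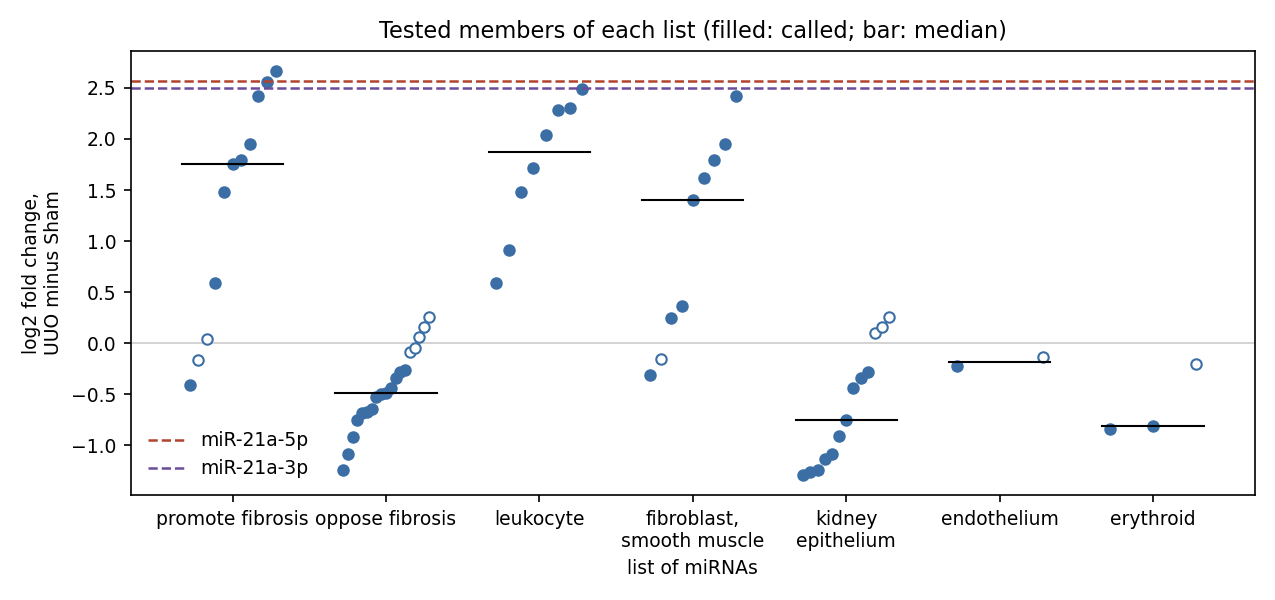
Log2 fold change, UUO minus Sham, of the tested members of each list, with filled points called, open points not called and a black bar at the median. The dashed lines give miR-21a-5p (2.56) and miR-21a-3p (2.50). Members of the leukocyte, fibroblast and fibrosis-promoting lists lie mostly above 0 and epithelial and fibrosis-opposing ones mostly below, and 1 point, miR-146b-5p at 2.66, lies above the 5p line.

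**Figure D5:**
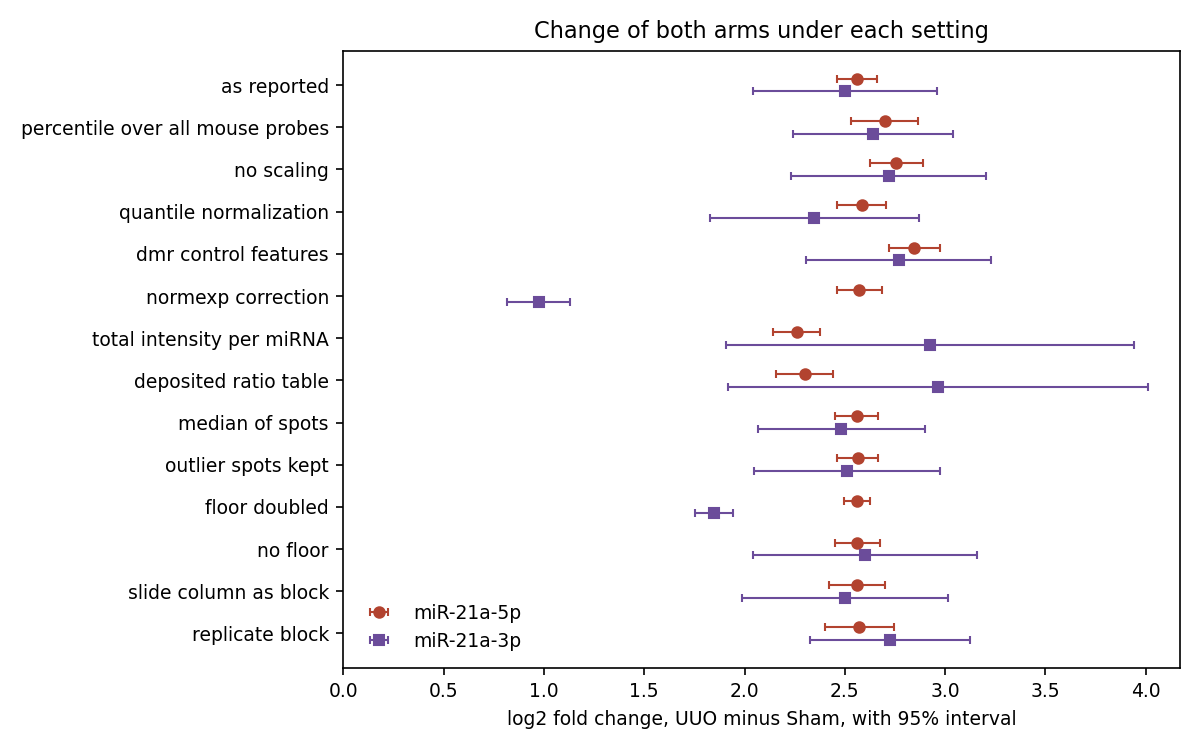
Log2 fold change of miR-21a-5p (circles) and miR-21a-3p (squares), UUO minus Sham, with 95% intervals, under the reported setting and 13 others. Both strands stay above 0 in each setting, from 2.26 to 2.85 for the 5p strand and from 0.97 to 2.97 for the 3p strand. With the floor doubled, all Sham values of the 3p strand are at the floor, so its interval there is not read.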

How the data were processed

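The deposited spot intensities were made by the authors with Agilent Feature Extraction 10.7.3.1, per the file headers and the submitters' processing notes, with a fitted spatial background removed, multiplicative detrending off and no scaling between arrays. RNA was labelled with Cy3 and hybridised on 1-colour arrays, per the labels' protocols. The deposited ratio table equals the software's total intensity times 1 factor per array, divided by each miRNA's median. The basis of that factor is not stated there. The table was read as log2 of the authors' ratios, as an alternative. Signals in the authors' deposited files are linear, and log2 was taken here.

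Outlier spots (2.64 to 2.95% per array) were dropped and the other spots of a probe averaged. The scale of an array was its 75th percentile, taken over 623 probes that every one of the 8 arrays detected, and signals were raised to a floor of log2 −4.89, the highest over arrays of the lowest detected signal. The probe with the highest mean stood for a miRNA, and the 408 miRNAs detected on at least 4 arrays were fitted with limma 3.58.1 (R 4.3.3) on group alone, with Benjamini-Hochberg adjustment. Strand differences were fitted in the same way over 48 pairs. The fits were tested on simulated data. The number of arrays limits the precision. Named miRNAs were both strands with all probes, their relatives, the 5 nearest patterns to each strand, the 3 largest strand shifts besides miR-21a, and the 2 largest called changes of each list. Members and lists were chosen with earlier results of these data known. Of 1881 miRNA names 1608 matched the RefSeq sequence table. Sample numbers are not said to pair the samples, and the fit used no pairing. The correlation of same-numbered deviations ran from −0.30 to 0.12 over 3 pairs. Differently numbered ones ran from −0.45 to 0.38, so this check cannot exclude pairing.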

Additional observations from a re-analysis of the deposited data

Results flagged for a closer look

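miR-21a-5p stood at a log2 signal of 4.04 on Sham 2, while the other 3 Sham arrays were at 4.09 each. The gap to the nearest of them was 0.864 of the range of the group, beyond the 95% limit for an outlier in a group of 4. The group's whole range is narrow, and leaving out Sham 2 gave a log2 fold change of 2.55, against 2.56 with it. This was 1 of 10 groups examined, and chance alone would mark about 1 in 20 such groups.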

How the results depend on the processing

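Both strands kept their direction under each of 16 alternatives and with each array left out. Without 1 array the log2 fold change ran from 2.55 to 2.58 for miR-21a-5p and from 2.38 to 2.69 for miR-21a-3p. Their calls held too, but not all can be read. For the 3p strand, all Sham values are at the floor with the floor doubled and for its 13-base probe, so neither call counts. Keeping only miRNAs detected on all 8 arrays drops the 3p strand. The fit with no filter is unreliable because most of its variances are 0. The strand shift, 0.06 and not called, became 1.60 with normexp correction and was called. The Sham signals of the 3p strand, 11.9 to 26.4, lie under the offset of 50, but the part of the offset in this was not tested. With the floor doubled all Sham values of the 3p strand lie at that floor. The shift was then 0.71, and no test is read from it. It changed sign without a call in the total intensity (−0.67) and the ratio table (−0.67), which add more 3p probes in UUO, with no floor (−0.037, added after seeing the data) and with the replicate block (−0.15). Without 1 array it ran from −0.13 (without Sham 8) to 0.18. The replicate block on samples 1 to 3 gave 2.57 for the 5p and 2.73 for the 3p strand and changed no call. Signal over background limits the 3p strand, detected on 2 of 4 Sham arrays. The 162 miRNAs called higher ran from 109 to 239 over the alternatives (147 to 171 without 1 array). The 113 called lower became 62 with dmr scaling, 217 with the total intensity and 207 in the ratio table (106 to 117 without 1 array); the cause was not tested. Of all calls 58.9% were higher, against 33.4 to 79.4% over the 8 scalings.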
